A study of Mus musculus with 14 samples.

Results

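The genes described here are the subunits of the proteasome and of its inducible form, the immunoproteasome. They were chosen by symbol as all protein-coding mouse genes named Psma, Psmb, Psmc, Psmd or Psme followed by a number, which gave 43 of the 55487 genes in the tables. Symbols with anything else after the number or letters, such as the pseudogenes and Psme2b, were left out. RNA sequencing of 14 libraries was used, from LSK cells (Lin-Sca1+c-kit+, the fraction that holds the hematopoietic stem cells), LK cells (Lin-c-kit+, labelled MP(LK), the myeloid progenitor fraction) and cultured bone marrow mesenchymal stromal cells (MSC). The LSK and LK cells carried a heterozygous Jak2V617F allele (Jak2 VF/+), in mice given PBS, with 3 libraries of each cell type, or IL-1β, with 2 of each (0.5 µg per dose, 3 doses per week, 16 weeks, intraperitoneal). PBS and IL-1β cells shared the C57BL/6 strain, the allele and its induction. By the study's account the allele was induced through Mx1Cre with pI-pC, which acts in hematopoietic and in some other cells. The marrow was then transplanted into lethally irradiated C57BL/6 recipients. MSC came from C57BL/6 marrow after 21 days in culture, and were given PBS or IL-1β (5 ng per ml) over 72 h (2 libraries each). The labels give no age for the mice.

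The proteasome degrades proteins that carry ubiquitin chains. Its 20S core has outer rings of α subunits (Psma) and inner rings of β subunits (Psmb), of which Psmb5, Psmb6 and Psmb7 cut the substrate. The 19S cap has ATPases (Psmc) that unfold the substrate and non-ATPases (Psmd) that bind ubiquitin and remove it. Interferon-induced Psmb8, Psmb9 and Psmb10 replace Psmb5, Psmb6 and Psmb7 in the immunoproteasome, which is abundant in hematopoietic cells and makes peptides for MHC class I. PA28αβ (Psme1 and Psme2), PA28γ (Psme3) and PA200 (Psme4) are activators that can replace the 19S cap. Psma8 is an α4-type subunit of spermatocytes that takes the place of Psma7, and Psmb11 is a β5-type subunit of thymic cortex epithelium.

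The 43 genes comprise 7 α subunits, Psma8, 7 β subunits, 3 inducible β subunits, Psmb11, 6 ATPases, 14 non-ATPases, Psme1, Psme2, Psme3 and Psme4. Libraries held 4393233 to 30871055 counted read pairs, and every IL-1β library of LSK and LK cells was shallower than every PBS library of the same population, so depth and treatment cannot be told apart there. Values are CPM (counts per 1000000 read pairs after TMM scaling within each comparison) unless they are named as counts or as TPM. TPM divides by gene length, so that levels of different genes can be compared roughly. The length is that of the gene model deposited with the counts, for example 899 bases for Psmb5 and 7248 for Psmd9. It can differ from the length of the transcripts in these cells, so ranks and ratios between genes are approximate. A gene was called higher or lower when its adjusted p was under 0.05 (edgeR's quasi-likelihood test, Benjamini-Hochberg adjustment over all genes tested) and its log2 value was above 0.5 in size. In bulk libraries, a change in the number of cells of a type and a change in RNA per cell cannot be told apart.

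Some features of the samples bear on the results. LSK PBS replicate 2 stood apart. Over 41 subunits, the SD of its log2 differences was 0.62 from PBS replicate 1 and 0.53 from PBS replicate 3, against 0.24 between replicates 1 and 3. PBS replicate 1 was the lowest of the 3 for 34 of the 41. The 7 hematopoietic progenitor markers, Kit and Ly6a (Sca1) among them, were detected in all groups of LSK and LK cells. They summed to 2171 to 2990 unscaled CPM in PBS and 1709 to 1983 in IL-1β LSK libraries. In LK libraries they summed to 1140 to 1458 with PBS and 1409 to 1657 with IL-1β. Of the 7, Flt3 alone was called in LSK, lower with IL-1β (log2 fold change -2.42, SE 0.35, edgeR adjusted p = 0.0207), and 3 had positive values. A list of 11 neutrophil granule genes summed to 2153 to 3386 unscaled CPM in PBS and 9959 to 11358 in IL-1β LSK libraries, and to 4435 to 9738 in PBS and 18535 to 21941 in IL-1β LK libraries. A list of 6 lymphoid genes moved the other way in LSK, from 107 to 344 unscaled CPM down to 2.89 to 6.15. A list of 10 erythroid genes summed to 2404 to 2796 unscaled CPM in PBS and 1435 to 1601 in IL-1β LK libraries. In the libraries labelled MSC, 8 mesenchymal markers summed to 1256 to 2679 unscaled CPM, Lepr was at 0 in both PBS libraries, and 8 macrophage markers summed to 11548 to 15637 with PBS and 30801 to 31113 with IL-1β. The part of these features in the results was not tested, except where a value without the library is given.

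Of the 43 genes, 42 passed the filter on low counts in each of the treatment comparisons and Psmb11 did not. Psmb11 had 2 counts in LK PBS replicate 2, 1 in MSC PBS replicate 3 and 2 in MSC IL-1β replicate 1, and 0 in the other 11 libraries. Per length, the most abundant subunit was Psmb4, a structural β subunit, in LSK cells with PBS (494 ± 133 TPM, SD, n = 3) and in LK cells with PBS (500.3 ± 102, SD, n = 3), and Psmb6, the constitutive β1 subunit, in MSC with PBS (386 ± 34.0, SD, n = 2). In LSK cells with PBS, Psmb4, Psmb5 (473 ± 219 TPM) and Psme1 (463 ± 43.4 TPM) did not differ beyond their spread. Psmd9, an assembly chaperone of the 19S base, stood at 21.7 ± 5.88 TPM in LSK, 27.8 ± 6.18 in LK and 17.4 ± 0.526 in MSC with PBS, last of all members but Psma8 and Psmb11 in LSK and LK. In MSC, Psmd5 was lower still, at 16.1 ± 0.124 TPM. The place of Psmd9 depends on its length. In CPM with PBS, Psmd10 had the lower mean, at 31.9 against 47.6 for Psmd9 in LSK and 32.1 against 71.3 in LK. Of the inducible subunits in LSK cells with PBS, Psmb10 had rank 6 (342 ± 84.1 TPM), Psmb8 rank 7 (336 ± 43.5) and Psmb9 rank 28 (137 ± 10.4), whereas in LK cells with PBS Psmb10 (143 ± 42.3 TPM), Psmb8 (126 ± 61.7) and Psmb9 (50.9 ± 20.8) had ranks 29, 31 and 39. The 43 genes together made up 7788 to 8672 TPM in the LSK PBS, 6340 to 10050.4 in the LK PBS and 5793 to 6055 in the MSC PBS libraries.

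The RefSeq promoter table (GRCm38.p6) held 39 start sites of 36 of the 43 genes. The 250 bases before each start were searched on both strands for 5 motifs, to show which subunits carry the letters of known stress and interferon response elements. The letters TGACNNNGC, the core of the antioxidant response element that NRF factors bind, occurred in 5 of the 39 windows (12.8%) and in 10.2% of all 32851 windows. An interferon-stimulated response element (GAAA, any 2 bases, then GAAA) occurred in 3 of 39 (7.69%) and in 2.98% of all. TTCNNNGAA, the gamma-activated site of interferon-responsive genes, occurred in 1 of 39 (2.56%) and in 7.02% of all, and a κB site (GGG, any 2 bases, then TTTCC) in 0 of 39 and in 1.41% of all. CCAAT occurred in 14 of 39 (35.9%) and in 33.8% of all. In 30 bases around the match, written in the direction of the gene with the match in capitals, the sequences of an inducible subunit and of constitutive counterparts, the genes the results below turn on, were as follows.
Psmb8, chr17:34198088-34198117, plus strand, TTCNNNGAA: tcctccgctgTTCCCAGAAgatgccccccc
Psmb5, chr14:54618023-54618052, minus strand, TGACNNNGC: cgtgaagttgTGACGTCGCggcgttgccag
Psmb6, chr11:70525327-70525356, plus strand, TGACNNNGC: acagaggcggactaaagagagTGACGGAGC
These matches lay 89 to 97 bases before the RefSeq start of Psmb8, 39 to 47 before that of Psmb5 and 1 to 9 before that of Psmb6. The other matches of TGACNNNGC were in Psmc6, Psmd12 and Psmd9, and those of the interferon-stimulated element in Psmb3, Psmd4 and Psmd9. Within the windows of Psmb9 and Psmb10 none of the first 4 motifs was found. A match is a description of letters and not evidence of binding.

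Psma8 was nearly unread with PBS and was read in every IL-1β library of LSK and LK cells. The 3 LSK libraries with PBS held 1, 0 and 0 counts and the 2 with IL-1β held 118 and 96. The LK libraries held 1, 5 and 0 counts without the cytokine and 57 and 78 with it. Both IL-1β libraries of each population therefore held at least 57 read pairs, and no PBS library held more than 5. A gene that spermatocytes use was thus read in both progenitor fractions of treated mice.

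As a rate per counted read pair, Psma8 was 684-fold higher with IL-1β in LSK (95% exact interval of the counts 122 to 27157) and 72.8-fold higher in LK cells (32.6 to 202). These intervals cover counting error only. Psma8 passed the filter on low counts in these comparisons only through the IL-1β libraries, where it is high, so its call is given as a description beside the counts. The fitted log2 fold change depends on the prior count, and was 9.11 (SE 0.87, edgeR's adjusted p = 0.00342) in LSK and 6.20 (SE 0.71, edgeR's adjusted p = 0.00308) in LK cells. In LSK it was not called by limma-voom (adjusted p = 0.0555) or without either of the IL-1β replicates. In LK cells it was called under all 14 alternatives run. These refits reuse the same counts, so they show how the call depends on settings and are no further evidence for it. The difference between the 2 responses was 2.89 on the log2 scale (SE 1.37, edgeR adjusted p = 0.363). In MSC, Psma8 had 18 and 24 counts with PBS and 40 and 12 with IL-1β, which scaled to 3.00 and 1.81 CPM and to 1.31 and 1.06 CPM (log2 fold change -0.95, SE 0.47, edgeR adjusted p = 0.236). MSC therefore held Psma8 reads without treatment, and there both treated libraries lay below both untreated ones, opposite to the direction in LSK and LK cells.

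**Figure D1:**
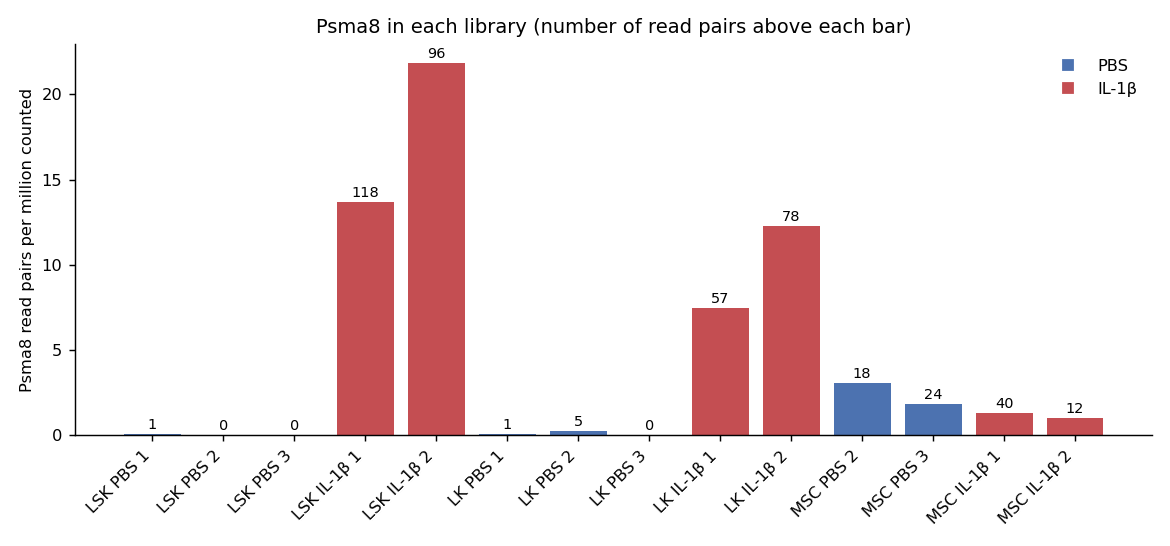
Psma8 read pairs per 1000000 counted read pairs (vertical axis, linear from 0) in each of the 14 libraries (horizontal axis), PBS in blue and IL-1β in red, with the number of read pairs above each bar. Bars of the 4 IL-1β libraries of LSK and LK cells stand between 7.45 and 21.9, and those of their 6 PBS libraries at or below 0.270.

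Psma7, the α4 subunit that Psma8 replaces in spermatocytes, remained the dominant form. Its values in LSK were 125, 268 and 196 CPM with PBS and 244 and 327 with IL-1β, and in LK 264, 222 and 257 CPM without and 219 and 233 under the cytokine, with overlapping libraries in both. Per length, Psma8 made up 6.74% and 8.23% of the sum of Psma7 and Psma8 in the IL-1β LSK libraries and 4.07% and 6.20% in the IL-1β LK libraries, against at most 0.143% in any PBS library of these cells. In MSC its share was 1.15% to 3.06%.

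Psma8 (ENSMUSG00000036743) lies on the plus strand of chromosome 18 (GRCm38, 14706151 to 14762301). Its nearest tested neighbours are Ss18, a chromatin remodelling subunit, and Taf4b, a TFIID subunit. Ss18 had log2 fold changes with IL-1β of -0.05 in LSK and -0.01 in LK (edgeR adjusted p = 0.939 and 0.948), and Taf4b of -0.11 and 0.07 (0.892 and 0.828). None of the 2700 stretches of 75 bases in the GENCODE M21 transcripts of Psma8 occurred in a transcript of another gene. Of 10 other male germ cell markers, 7 were at 0 in both IL-1β LSK libraries and 8 at 0 in both IL-1β LK libraries, and the list summed to at most 0.579 unscaled CPM in the former and 1.73 in the latter, where the PBS libraries reached 1.40 and 3.99. Meiotic markers Sycp1 and Stra8 and the protamines Prm1 and Prm2 were at 0 in all 10 LSK and LK libraries. Sycp3, another marker of the list, was at 0 in LSK cells with PBS and was read there with IL-1β. In LK cells it was read with PBS and at 0 with IL-1β. Ddx4 and Dazl were read in all groups of LSK and LK cells, though not in every library. The list summed to 0 to 1.40 unscaled CPM in LSK PBS and 0 to 0.579 in LSK IL-1β libraries. Reads of Sycp3, Ddx4 and Dazl in LSK were therefore few and absent from a library of each group.

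In LSK cells the comparison of IL-1β with PBS asks how long exposure to the cytokine changes the mutant stem and progenitor cells. All 42 tested subunits had a higher fitted mean with IL-1β, against 46.5% of all 13132 genes tested. Their log2 fold changes had a median of 0.58, where all genes had one of -0.06. As TPM, which is not TMM-scaled, the members summed to 7788 to 8672 in the PBS and 9004 to 10432 in the IL-1β libraries. Mean TPM was lower with IL-1β for Psmb1, Psmb2, Psmb9, Psmd1, Psmd5, Psmd11, Psmd12, Psme1, Psme2 and Psme4. It was higher for the other tested members. Only Psma8 was called higher and 0 members were called lower, where 0.32% and 0.312% of all genes were called (0.632% either way). At an unadjusted p under 0.05, 17 members were higher and 0 lower, where 8.01% of all genes were higher and 10.5% lower. For 22 members both IL-1β libraries lay above all 3 PBS libraries, as did 18.2% of all genes.

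**Figure D2:**
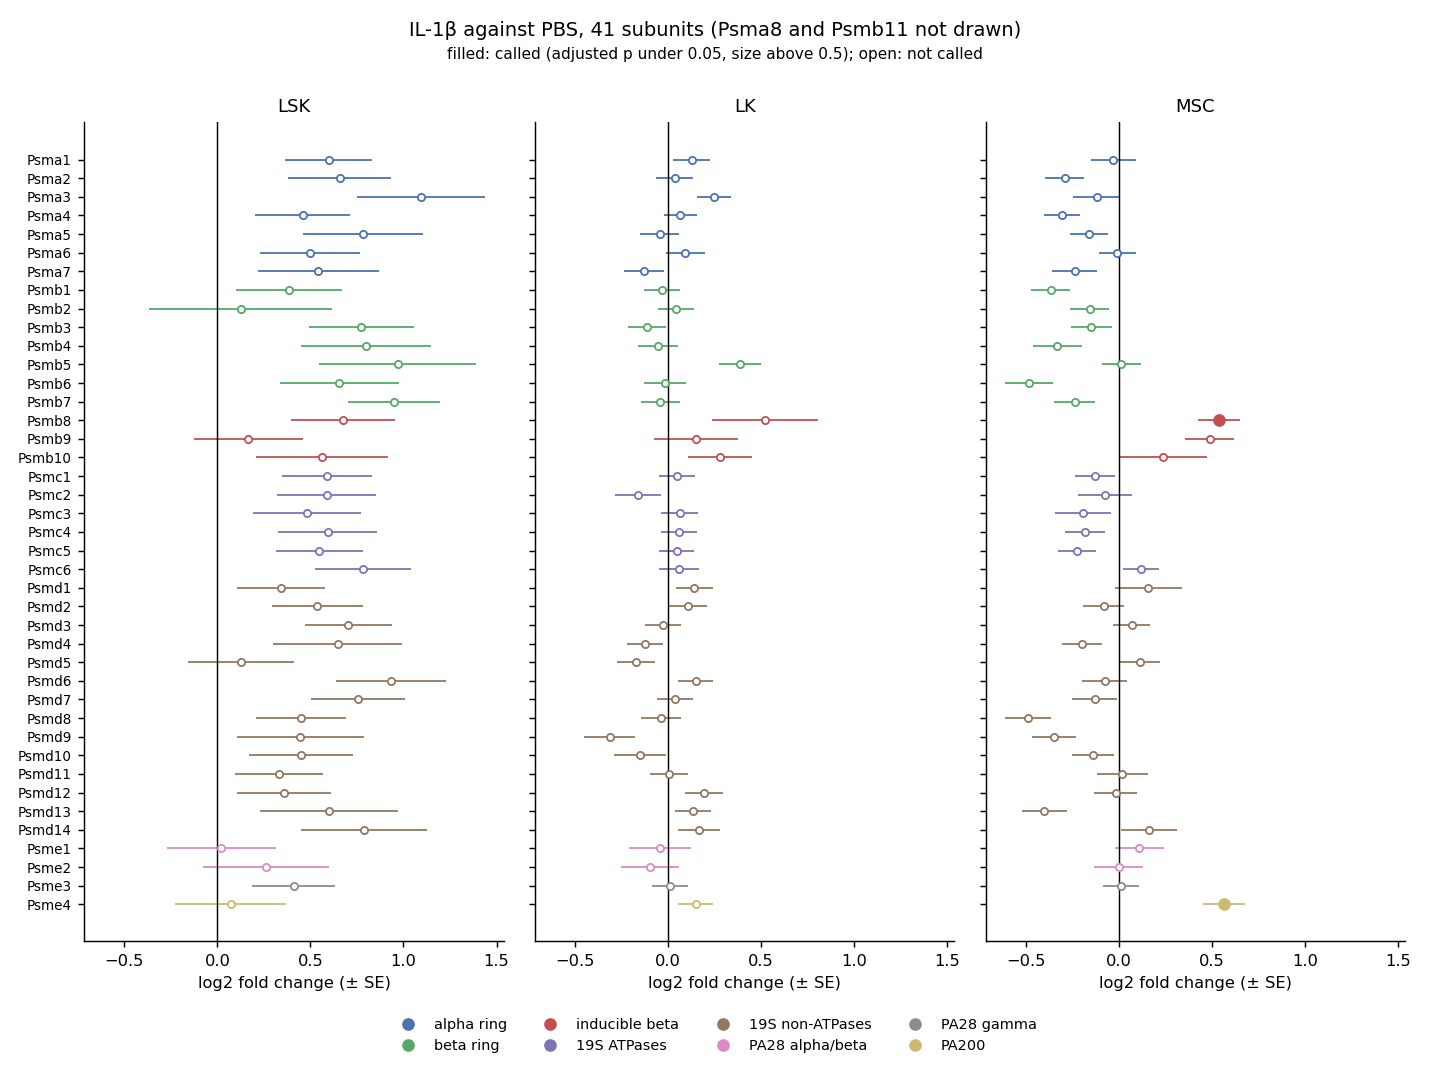
Log2 fold change of IL-1β against PBS (horizontal axis, bars ± SE, the same scale in the 3 panels) for 41 subunits (vertical axis, coloured by role) in LSK, LK and MSC, with called subunits filled. In LSK all 41 points lie to the right of 0, in LK most lie near 0, and in MSC Psmb8 and Psme4 are filled.

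The median log2 fold changes of the main groups lay close together in LSK cells, and differences between groups were not tested. Over the 14 α and β subunits of the constitutive core (Psma8 aside) the median was 0.66, with 8 at an unadjusted p under 0.05. Over the 20 subunits of the 19S cap it was 0.57, with 7, and over the 3 inducible β subunits 0.56, with 1. Of all genes, 8.01% were higher at that level. Psma3, an α7 subunit, stood at 99.5, 246 and 163 CPM with PBS and 350.2 and 373 with IL-1β (log2 fold change 1.09, SE 0.34, edgeR adjusted p = 0.154). Both IL-1β libraries were above all PBS libraries, and PBS replicate 2 was the highest of the PBS libraries. Psmb7, the trypsin-like β2 subunit, stood at 107, 130.2 and 144 CPM with PBS and 212 and 280.1 with IL-1β (log2 fold change 0.95, SE 0.25, edgeR adjusted p = 0.109), again without overlap. Psmb5, the chymotrypsin-like β5 subunit, stood at 74.2, 222 and 95.2 CPM with PBS and 215 and 296 with IL-1β (log2 fold change 0.97, SE 0.42, edgeR adjusted p = 0.264). Its PBS replicate 2 lay inside the IL-1β range. Psmb6, the caspase-like β1 subunit, stood at 79.7, 127 and 127 CPM with PBS and 125 and 225 with IL-1β (log2 fold change 0.65, SE 0.32, edgeR adjusted p = 0.303), with overlap. The 6 ATPases ranged from 0.48 to 0.78 in log2 fold change and the 14 non-ATPases from 0.13 to 0.93. Of these, 5 ATPases and 7 non-ATPases did not overlap in the upward direction, where 18.2% of all genes did not.

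Among inducible subunits and activators in LSK cells, Psmb8 alone passed an unadjusted p of 0.05. Psmb8 stood at 275, 339 and 385 CPM with PBS and 414 and 648 with IL-1β (log2 fold change 0.67, SE 0.28, edgeR adjusted p = 0.245), without overlap. Psmb10 stood at 123, 255 and 148 CPM with PBS and 191 and 328 with IL-1β (0.56, SE 0.36, edgeR adjusted p = 0.417), and Psmb9 at 115, 186 and 146 with PBS, against 131 and 204 with IL-1β (0.17, SE 0.29, edgeR adjusted p = 0.796), both with overlap. Of the PA28 genes, Psme1 stood at 223, 360 and 329 CPM with PBS and 252 and 365 with IL-1β, and Psme2 at 99.1, 214 and 153 with PBS, against 148 and 225 with IL-1β, so the IL-1β libraries lay largely within the PBS range. The PA200 gene Psme4 stood at 115, 64.5 and 83.5 CPM with PBS and at 106 and 77.3 with IL-1β.

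The number of subunits called in LSK, and the size of their shift, depended on single libraries. The median log2 fold change of the members was 0.45 without PBS replicate 1, 0.71 without PBS replicate 2 and 0.59 without PBS replicate 3. It was 0.73 without IL-1β replicate 1 and 0.39 without IL-1β replicate 2. Over all genes these medians ran from -0.14 to -0.03. Without PBS replicate 1, 5 members had an unadjusted p under 0.05, against 17 with all libraries. Psma8 alone was called in that fit, where 36 of all genes were called higher. Without IL-1β replicate 1 or 2, fits in which the lone IL-1β library is assumed to vary like the PBS libraries, 0 members were called, where 0.0427% and 0.0211% of all genes were called higher and 0 lower. Without PBS replicate 2, 4 of 42 members were called higher (Psma8, Psmb5, Psma3 and Psmd6), where 2.21% of all genes were called higher, 40 had a positive log2 fold change (48.3% of all genes), and 33 did not overlap between treatments in the upward direction (27.8% of all genes). When the spread was also shared with the LK libraries, an alternative chosen after seeing the data, 22 of 42 were called higher and 0 lower, where 9.71% and 11% of all genes were called. DESeq2's Wald test on all 5 libraries called 5 members higher (Psma8, Psma3, Psmb7, Psmd6 and Psmd3), where 3.37% of all genes were called. Psmb2, a structural β subunit, shows how that library differed, with 269 counts there against 966 and 1468 in PBS replicates 1 and 3 (21.1 against 70.6 and 85.9 CPM).

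**Figure D3:**
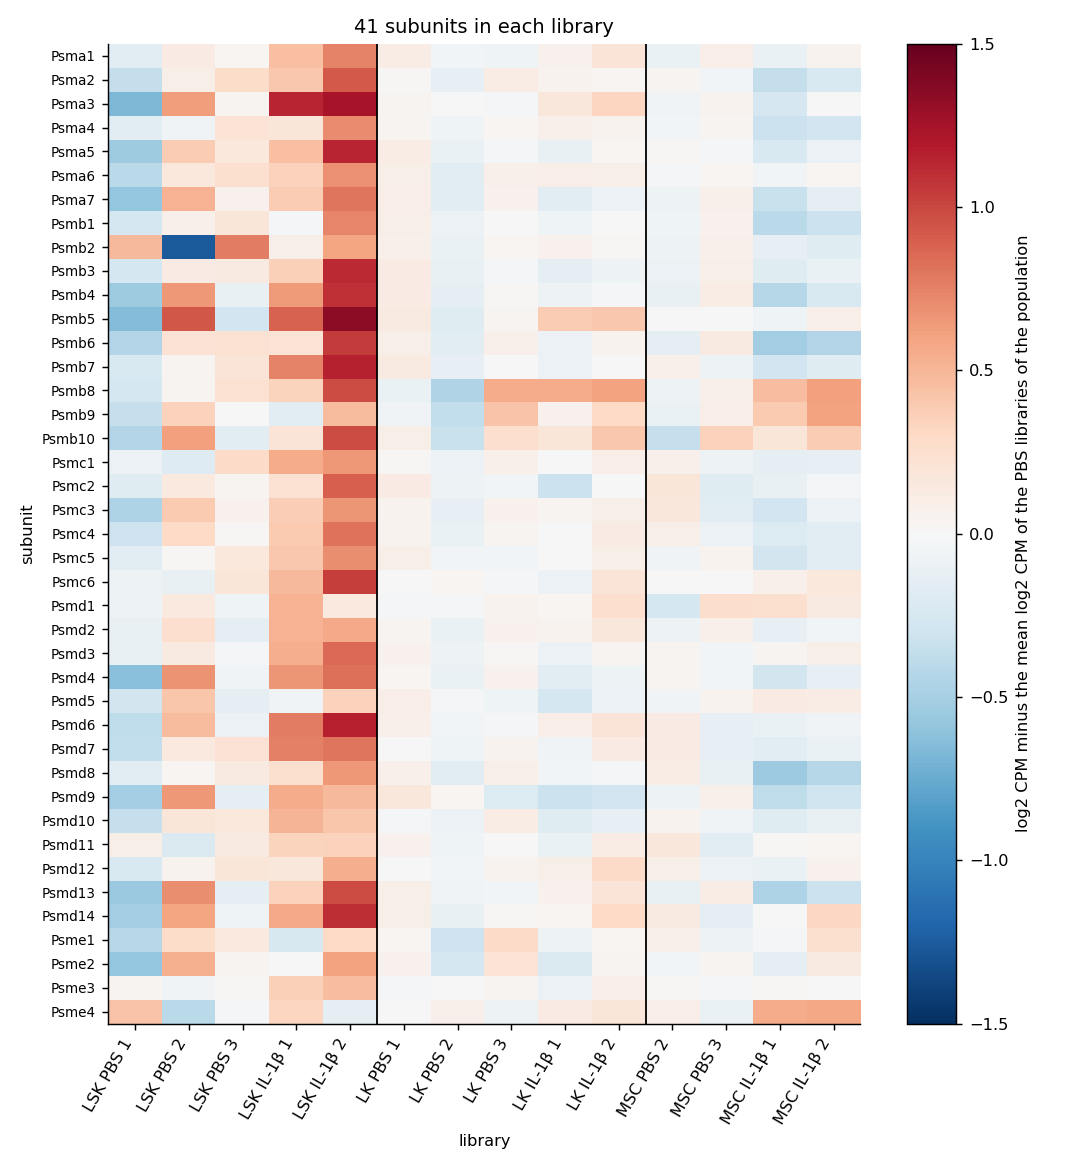
Log2 CPM of 41 subunits (vertical axis) in each library (horizontal axis), minus the mean log2 CPM of the PBS libraries of the same population (colour scale from -1.5 to 1.5, red higher). LSK PBS replicate 2 mixes red and blue (range -1.26 to 0.94), both LSK IL-1β libraries are mostly red (medians 0.39 and 0.74), and the LK libraries are pale.

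In LK cells, the same treatment left most subunits near their PBS level. Of the 42 tested, 26 had a positive log2 fold change (47.1% of all 12835 genes tested), and the median was 0.04, against -0.03 over all genes. Psma8 alone was called higher and 0 members were called lower, where 6.77% and 2.57% of all genes were called (9.34% either way). At an unadjusted p under 0.05, 3 members were higher and 1 was lower, where 14% of all genes were higher and 10.8% lower. For 9 members both IL-1β libraries lay above the PBS libraries and for 3 below, where the shares over all genes were 23.5% and 22.2%.

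In these LK cells Psmb5 stood at 127, 102 and 119 CPM with PBS and 151 and 153 with IL-1β (log2 fold change 0.39, SE 0.11, edgeR adjusted p = 0.0661). Psmb8 stood at 131, 103 and 207 CPM with PBS and 207 and 214 with IL-1β (0.52, SE 0.29, edgeR adjusted p = 0.330). Its PBS replicate 3 lay next to the IL-1β libraries, and without that replicate Psmb8 was called higher (log2 fold change 0.86, edgeR adjusted p = 0.000131), where 12.3% of all genes were called higher and 7.45% lower. Psmb10 stood at 89.6, 66.9 and 101 CPM with PBS and 95.8 and 112 with IL-1β (0.28, SE 0.17, edgeR adjusted p = 0.371), and Psmb9 at 60.9, 48.7 and 84.6 with PBS, against 65.7 and 77.8 with IL-1β (0.15, SE 0.23, edgeR adjusted p = 0.733), with overlap in both. Psmb6 stood at 160, 135 and 159 CPM with PBS and 142 and 157 with IL-1β, and Psmb7 at 219, 184 and 199 with PBS, against 188 and 202 with IL-1β. Psme1 ran from 143 to 218 CPM with PBS and from 169.9 to 181 with IL-1β, and Psme2 from 97.9 to 136 and from 101 to 122.

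The difference between the LSK and LK responses was fitted as an interaction term in the 10 libraries together. It was positive (a larger log2 fold change in LSK) for 40 of 42 members, against 43.6% of all 13839 genes, with a median of 0.49 over the members and -0.12 over all genes. By edgeR's quasi-likelihood test 0 members passed an adjusted p of 0.05, where 0.0289% of all genes passed (0.00723% in the direction of LSK), and 8 had an unadjusted p under 0.05, all in the direction of LSK, where 4.68% of all genes did so and 9.54% did in the direction of LK. By DESeq2's Wald test 2 passed (Psmb7 and Psmd3), where 0.937% of all genes passed in the direction of LSK and 1.84% in that of LK. Of the constitutive catalytic subunits, Psmb7 was at 0.96 (SE 0.26, edgeR adjusted p = 0.176) and Psmb5 at 0.56 (SE 0.50, edgeR adjusted p = 0.649). For the inducible β subunits the difference lay between -0.01 and 0.26. Without LSK PBS replicate 2, 5 members passed by edgeR (Psmb4, Psmb5, Psmd4, Psmd9 and Psmd6), where 1.23% of all genes passed in the direction of LSK and 1.24% in that of LK. Without LSK IL-1β replicate 1, 1 did (Psmb3), where 0.288% and 1.05% of all genes passed.

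In MSC, the 72 h of IL-1β were accompanied by a rise of an inducible subunit while most constitutive core subunits had lower fitted means that did not pass the test. Psmb8 and Psme4 were called higher and 0 of 42 members were called lower, where 7.14% and 4.31% of all 13239 genes were called. Positive log2 fold changes were seen for 13 members (50.4% of all genes), and the median was -0.12 over the members and 0.00 over all genes. The treated pair of libraries lay above the untreated pair for 6 members and below it for 19, where the shares over all genes were 31.3% and 29.8%. At an unadjusted p under 0.05, 3 were higher and 8 lower, where 15.9% and 14.1% of all genes were.

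Psmb8 rose in MSC from 109 and 121 CPM with PBS to 159 and 176 with IL-1β (log2 fold change 0.54, SE 0.11, edgeR adjusted p = 0.0366). Psme4, the PA200 activator, rose from 56.5 and 49.3 to 77.4 and 78.6 CPM (0.57, SE 0.11, edgeR adjusted p = 0.0324). Both sizes lie close to the threshold of 0.5. Psmb8 was not called with upper-quartile factors (0.47). In that fit Psmd8 and Psmb6 were called lower, where 817 genes were called higher and 831 lower over all genes. Nor was Psmb8 called without PBS replicate 2 (0.48), or Psme4 without PBS replicate 3 (0.47). Neither was called without either of the IL-1β replicates. Those fits leave a lone library that is assumed to vary like the other group, and they called few genes of any kind. The loss of both calls there is therefore no result about these genes.

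In the fits without a PBS replicate the lone PBS library is likewise assumed to vary like the other group. Without PBS replicate 2, Psmb6 and Psmd13 were called lower, where 14.6% of all genes were called higher and 12.7% lower. Without PBS replicate 3, Psmb10 and Psmb9 were called higher and Psmd8 lower, where 12% and 8.46% of all genes were called.

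The other inducible subunits in MSC did not pass. Psmb9 stood at 33.7 and 38.4 CPM with PBS and 47.3 and 54.6 with IL-1β (0.49, SE 0.13, edgeR adjusted p = 0.0665), without overlap. Psmb10 stood at 80.0 and 129 CPM with PBS and 116 and 133 with IL-1β (0.24, SE 0.23, edgeR adjusted p = 0.549), and without PBS replicate 2 its log2 fold change was -0.05. Of the constitutive counterparts, Psmb6 stood at 221 and 268 CPM with PBS and 170.0 and 179.9 with IL-1β (-0.48, SE 0.13, edgeR adjusted p = 0.0643), Psmb7 at 114 and 103 with PBS, against 88.5 and 95.3 with IL-1β (-0.24, SE 0.11, edgeR adjusted p = 0.207), and Psmb5 at 102 and 101 with PBS, against 96.9 and 108 with IL-1β. Psma7 stood at 117 and 130.4 CPM with PBS and 97.9 and 112 with IL-1β (-0.24, SE 0.12, edgeR adjusted p = 0.248). Of the 14 constitutive core subunits, 10 did not overlap in the downward direction, where 29.8% of all genes did not. The PA28 genes overlapped, Psme1 at 146 and 132 CPM with PBS and 136 and 164 with IL-1β, and Psme2 at 120 and 126 with PBS, against 111 and 136 with IL-1β.

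LSK and LK cells were then compared within each treatment. In PBS mice the 3 inducible subunits and Psme1 were higher in LSK cells and 16 other subunits were lower. Of 41 members tested (Psma8 and Psmb11 had too few counts), 4 were called higher and 16 lower in LSK than in LK, where 18.4% and 12.8% of all 12737 genes were called. The median log2 difference was -0.51 over the members and 0.04 over all genes, and 6 of 41 were positive (51.8% of all genes). For 4 members all LSK libraries lay above all LK libraries and for 25 below, where the shares over all genes were 26.2% and 24.2%.

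Scaled within this comparison, Psmb8 stood at 286, 341 and 388 CPM in LSK and 137, 106 and 217 in LK with PBS (log2 difference 1.15, SE 0.26, edgeR adjusted p = 0.0110). Psmb9 stood at 120.0, 187 and 148 CPM in LSK and 63.5, 50.03 and 88.6 in LK (1.17, SE 0.25, edgeR adjusted p = 0.00788). Psmb10 stood at 128, 257 and 149.5 CPM in LSK and 93.4, 68.8 and 105 in LK (1.00, SE 0.28, edgeR adjusted p = 0.0251). All LSK libraries were above all LK libraries for these 3 genes. Psme1 stood at 232, 363 and 331 CPM in LSK and 189, 147 and 229 in LK (0.71, SE 0.22, edgeR adjusted p = 0.0379), again above, though its lowest LSK and highest LK library lay close together. Psme2 had a log2 difference of 0.35 (SE 0.26, edgeR adjusted p = 0.348).

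Among the members called lower, the 5 largest differences were in 19S ATPases, a β subunit and 19S non-ATPases. Psmc2 stood at 104, 125 and 117 CPM in LSK and 240.3, 205 and 215 in LK with PBS (-0.93, SE 0.14, edgeR adjusted p = 0.00209), and Psmc6 at 74.8, 70.2 and 86.4 in LSK and 147, 148 and 145 in LK (-0.93, SE 0.14, edgeR adjusted p = 0.00209). Both are ATPases. The structural β3 subunit Psmb3 stood at 94.2, 119 and 119.6 CPM in LSK and 226, 189 and 205 in LK (-0.90, SE 0.16, edgeR adjusted p = 0.00338). The non-ATPase Psmd3 stood at 203, 232 and 208 CPM in LSK and 406, 363 and 396 in LK (-0.86, SE 0.14, edgeR adjusted p = 0.00265), and Psmd11 at 109.9, 85.5 and 109 in LSK and 182, 164 and 176 in LK (-0.78, SE 0.15, edgeR adjusted p = 0.00599). In each of these 5, every LSK library lay below every LK library. The other 11 called lower were Psma2, Psma4, Psma6, Psmb1, Psmb7, Psmc1, Psmc5, Psmd1, Psmd7, Psmd12 and Psme3, among them Psmb7 at -0.69 (SE 0.15, edgeR adjusted p = 0.0103). Psmb6 had a log2 difference of -0.48 (SE 0.20, edgeR adjusted p = 0.0907). Without LSK PBS replicate 2, 31 members were called lower and 3 higher (Psme1 was lost), where 16.3% and 21% of all genes were called. Without LK PBS replicate 1, 8 members were lower (6.33% of all genes) and only Psmb9 was higher (9.77% of all genes). Without LK PBS replicate 2, Psmb8 and Psmb9 were called higher and 14 members lower, where 10% and 7.58% of all genes were called. Without LK PBS replicate 3, the same 4 were higher and 9 lower, where 15.2% and 9.11% of all genes were called.

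With IL-1β, the inducible subunits were again higher in LSK, but the other subunits were not generally lower. Of 42 tested, 3 were called higher and 1 lower, where 4.18% and 4.14% of all 11743 genes were called (8.32% either way), and 25 were positive (48.8% of all genes). The median log2 difference was 0.06 over the members and -0.02 over all genes. For 15 members both LSK libraries lay above both LK libraries and for 9 below, where the shares over all genes were 28.4% and 31%.

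Scaled within this comparison, Psmb8 stood at 394 and 614 CPM in LSK and 201 and 208 in LK (1.30, SE 0.24, edgeR adjusted p = 0.0257). Psmb10 stood at 182 and 311 CPM in LSK and 92.7 and 109 in LK (1.29, SE 0.28, edgeR adjusted p = 0.0382), and Psmb9 at 125 and 193 in LSK and 63.6 and 75.8 in LK (1.19, SE 0.25, edgeR adjusted p = 0.0376). Psmb2 was the member called lower, at 51.0 and 72.1 CPM in LSK and 130.4 and 126 in LK (-1.07, SE 0.22, edgeR adjusted p = 0.0356). With PBS it was not called, at 73.5, 21.2 and 86.5 CPM in LSK and 141, 123 and 137 in LK. Psme1 stood at 240.0 and 346 CPM in LSK and 164 and 177 in LK (0.78, SE 0.22, edgeR adjusted p = 0.0706), Psme2 at 141 and 213 in LSK and 97.8 and 119 in LK (0.71, SE 0.25, edgeR adjusted p = 0.115), and Psmb5 at 205 and 280.3 in LSK and 146 and 149 in LK (0.72, SE 0.21, edgeR adjusted p = 0.0736). Psma8 had a log2 difference of 0.88 (SE 0.39, edgeR adjusted p = 0.190). In the joint fit of 10 libraries the call of Psmb10 and that of Psmb2 were lost, which left Psmb8 and Psmb9 higher and 0 lower, where 2.13% and 2.27% of all genes were called. With the replicate number as a block, Psme1, Psmb5 and Psme2 were called higher too, which gave 6 higher and 1 lower, where 8.63% and 8.89% of all genes were called. With that block in PBS mice, Psma5, Psmb2 and Psmd6 were called lower too, which gave 19 lower and the same 4 higher, where 14.1% and 18.4% of all genes were called. Leaving out 1 of these 4 libraries leaves a lone library of its population, which is assumed to vary like the other population. Without LK IL-1β replicate 1, 0 members were called, where 1.61% of all genes were called higher and 2.01% lower. Without LK IL-1β replicate 2, Psmb8 and Psmb10 were called higher and 0 lower, where 0.944% and 1.92% of all genes were called. Without LSK IL-1β replicate 1, 16 members were called higher and 2 lower, where 16.5% and 17.5% of all genes were called. Without LSK IL-1β replicate 2, 4 were higher and 5 lower, where 16.2% and 17.2% of all genes were called.

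**Figure D4:**
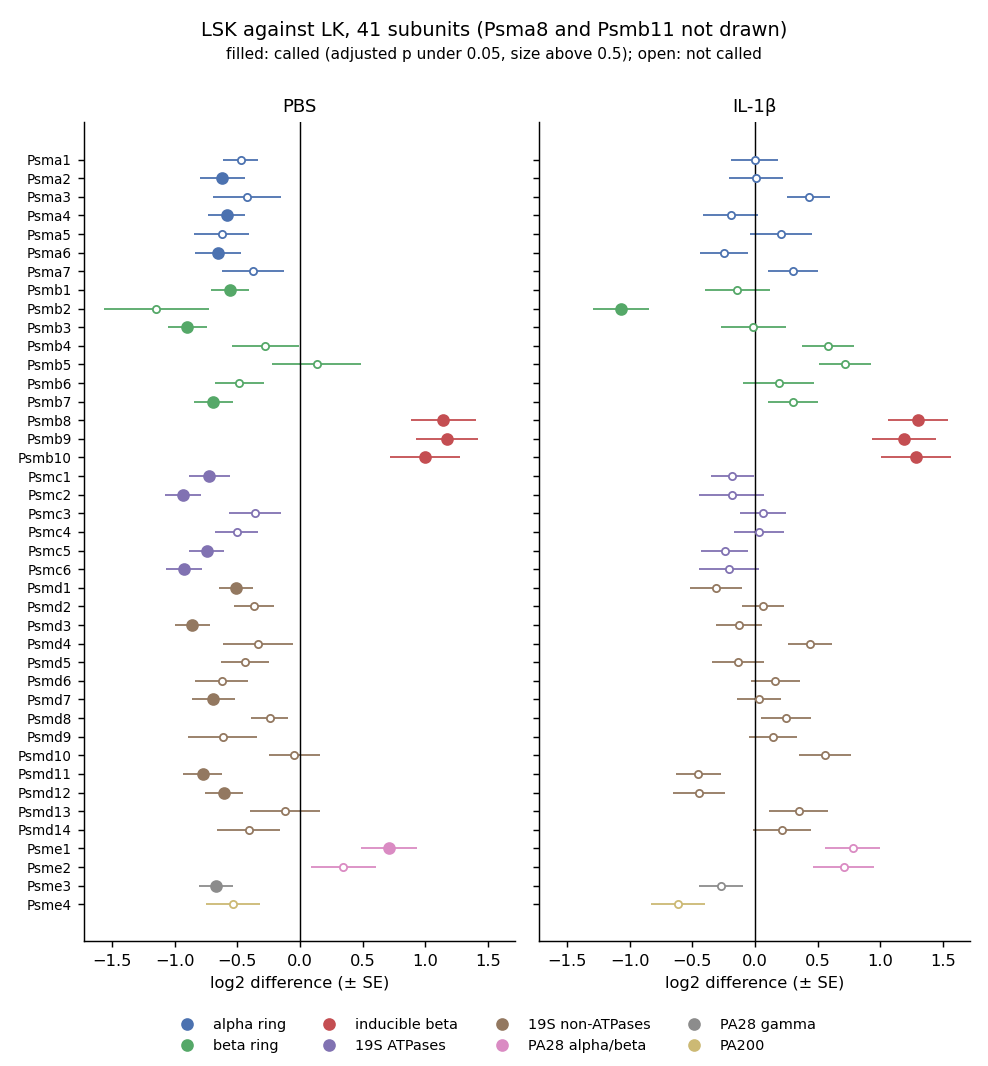
Log2 difference of LSK against LK (horizontal axis, bars ± SE, the same scale in both panels) for 41 subunits (vertical axis, coloured by role) with PBS (left) and with IL-1β (right), called subunits filled. The 3 inducible β subunits (red) lie between 1.00 and 1.30 in both panels, while the α, β and 19S subunits lie mostly left of 0 with PBS and around 0 with IL-1β.

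Ratios within a library do not depend on how libraries are scaled to each other, so each inducible subunit was set against its constitutive counterpart as counts per length. The level of a ratio depends on the gene lengths used, while its change between libraries does not. The Psmb9 to Psmb6 ratio was 0.740, 0.752 and 0.592 in LSK PBS and 0.539 and 0.463 in LSK IL-1β libraries. It was 0.194, 0.185 and 0.271 in LK PBS and 0.236 and 0.253 in LK IL-1β libraries. In MSC it was 0.0779 and 0.0733 with PBS, against 0.142 and 0.155 with IL-1β. The ratio thus stood lower with IL-1β in LSK cells and higher in MSC, without overlap in either, and overlapped in LK cells.

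The Psmb8 to Psmb5 ratio was 0.986, 0.405 and 1.08 in LSK PBS and 0.511 and 0.583 in LSK IL-1β libraries, so PBS replicate 2 lay below both IL-1β libraries. In LK it was 0.275, 0.268 and 0.461 with PBS, against 0.367 and 0.373 with IL-1β, and in MSC 0.284 and 0.318 with PBS, against 0.435 and 0.433 with IL-1β. The Psmb10 to Psmb7 ratio was 2.30, 3.94 and 2.07 in LSK PBS and 1.81 and 2.35 in LSK IL-1β, 0.821, 0.730 and 1.01 in LK PBS and 1.02 and 1.12 in LK IL-1β, and 1.41 and 2.52 in MSC PBS and 2.62 and 2.80 in MSC IL-1β libraries. For that pair LK and MSC libraries did not overlap between treatments, with a gap in LK only from 1.01 to 1.02. Differences in mean log2 ratio between IL-1β and PBS were -0.47, -0.47 and -0.36 in LSK (Psmb8, Psmb9 and Psmb10 pairs), 0.19, 0.20 and 0.33 in LK, and 0.53, 0.98 and 0.52 in MSC. By a two-sided exact permutation test over the libraries the p-values were 0.4, 0.2 and 0.6 in LSK, 0.5, 0.4 and 0.2 in LK, and 0.333 for each pair in MSC. With 2 against 3 libraries that test cannot go below 0.1, and with 2 against 2 not below 0.333.

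**Figure D5:**
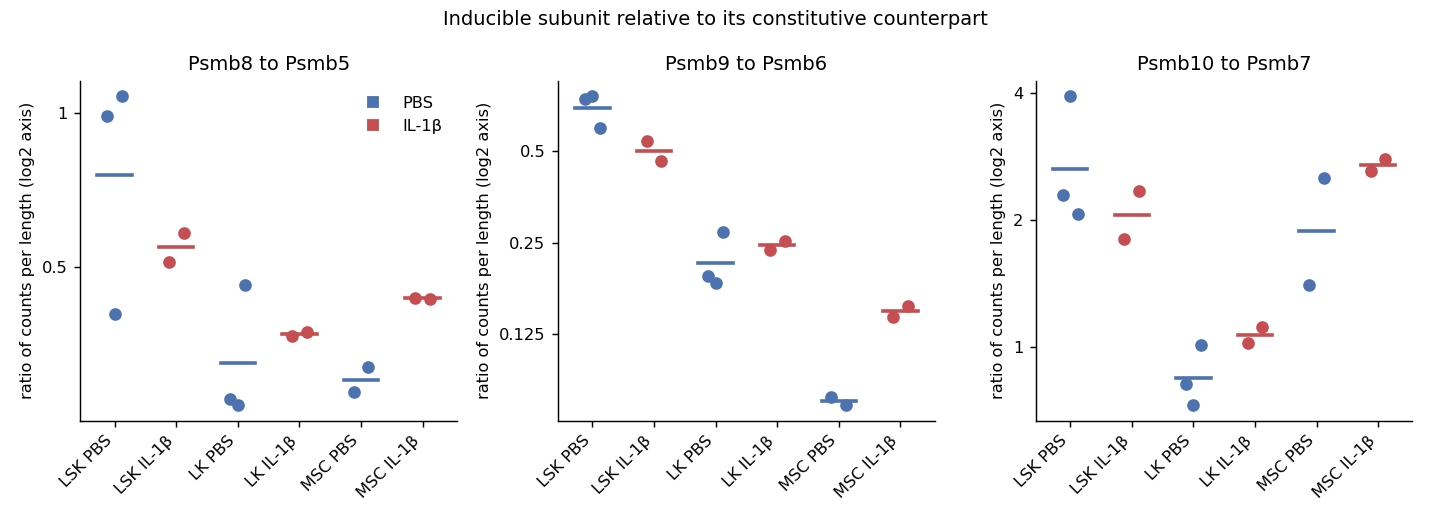
Ratio of each inducible subunit to its constitutive counterpart as counts per length (vertical axis, log2 scale) in each library of the 6 groups (horizontal axis), PBS in blue and IL-1β in red, with bars at the geometric mean. The Psmb9 to Psmb6 ratio runs from 0.592 to 0.752 in LSK PBS and from 0.185 to 0.271 in LK PBS libraries, and from 0.0733 to 0.155 in MSC.

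The ratios also separated LSK from LK cells. The Psmb9 to Psmb6 and Psmb10 to Psmb7 ratios were higher in every LSK than in every LK library of the same treatment. In PBS mice the difference in mean log2 ratio was 1.69 for the Psmb9 pair and 1.65 for the Psmb10 pair (exact permutation p = 0.1 each, two-sided, the smallest that 3 against 3 libraries allow). For the Psmb8 pair it was 1.22 (exact permutation p = 0.2), since LSK PBS replicate 2 lay within the LK range.

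Genes around the proteasome were described from lists. Of 15 assembly and associated factors 14 were tested. With IL-1β, 0 were called in LSK, Uchl5, a deubiquitinase of the 19S cap, was called higher in LK (log2 fold change 0.54, SE 0.10, edgeR adjusted p = 0.0159), and Pomp, the maturation chaperone of the 20S core, was called lower in MSC (-0.67, SE 0.13, edgeR adjusted p = 0.0319). The list medians were 0.49 in LSK (11 of 14 positive), -0.10 in LK and -0.31 in MSC. In LSK against LK with PBS, 4 were lower (Psmf1 at -1.19, Txnl1 at -1.02, Psmg2 at -1.01 and Adrm1 at -0.80), and with IL-1β 2 were higher (Sem1 at 1.25 and Pomp at 0.72). Adrm1 is a ubiquitin receptor and Psmf1 an inhibitor of the proteasome.

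Of 7 regulators, Nlrc5, the transactivator of MHC class I genes and of immunoproteasome genes, was called lower with IL-1β in LSK (-1.66, SE 0.25, edgeR adjusted p = 0.0217) and higher in MSC (2.07, SE 0.13, edgeR adjusted p = 0.00176). Irf1 (0.58), a transcription factor of the interferon response, was called higher in MSC as well, and 0 regulators were called in LK. In LSK against LK with PBS, Irf1 (2.04) and Nlrc5 (1.41) were higher and Nfe2l2, the NRF2 gene, lower (-1.14), and with IL-1β Nfe2l2 alone was called (-1.05). Of 13 ubiquitin and shuttle factors 0 were called with IL-1β in LSK, LK or MSC, and Nploc4 (-0.51), a cofactor of the segregase Vcp, was among those called lower in LSK than in LK with PBS. Tap1, the peptide transporter gene that lies beside Psmb9 and Psmb8 on chromosome 17, had log2 fold changes with IL-1β of -0.55 in LSK (edgeR adjusted p = 0.256), -0.07 in LK (edgeR adjusted p = 0.855) and 1.45 in MSC (edgeR adjusted p = 0.00211). The gene models of Psmb9 and Tap1 overlap on opposite strands, and Psmb8 overlaps the antisense gene Gm20496. H2-DMb1, on the other side of Psmb9, had log2 fold changes of -1.27, 0.20 and 0.11 and was not called.

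Some subunits share sequence with other genes, so their counts are less certain. The share of 75-base stretches also found in transcripts of other genes was 36.8% for Psmb5, 35.2% for Psma5, 22.9% for Psme2 (with Psme2b), 14.3% for Psma3, 10.3% for Psmb3, 9.77% for Psmd2, 6.45% for Psmc1 and 5.62% for Psma4, and at most 4.15% for the other 35 members.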

How the data were processed

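Gene counts of 14 libraries (10 of sorted LSK and LK cells, 4 of MSC) were used. The authors deposited counts of read pairs per gene, without normalization. Per the labels and the file headers, reads were processed with fastp 0.20.0, HISAT2 2.0.1, SAMtools 1.10 and featureCounts 2.0.2 (reverse-stranded) on GRCm38 with Ensembl release 100, after ribosomal RNA depletion. The methods also name GenomicAlignments. Symbols came from GENCODE M21, which listed 55227 of the 55487 identifiers. A further MSC library named in a header was not analysed here.

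The test was the robust quasi-likelihood fit of edgeR 4.0.16 (R 4.3.3) after filterByExpr and TMM scaling, run within each comparison, with Benjamini-Hochberg adjustment over all genes tested. DESeq2 1.42.0 and limma 3.58.1 (voom) were alternatives, beside other scaling factors, filters, the replicate block, a joint fit and leaving out each library. The scripts were tested on simulated data. The members and the gene lists were chosen with earlier results of these data known. Named genes were the inducible and tissue-restricted members, their counterparts and up to 5 called members in each direction. Psma3, Psmb2, Psmb4, Psmd5 and Psmd9 were added after their values were seen. Some called genes of the lists are not reported here.

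Labels do not say whether replicates were separate mice or cultures, so p-values measure the spread between libraries, which may be technical. Deviations of LSK and LK libraries of one number from their group means correlated at 0.23, 0.13 and 0.50 in PBS, where pairs of unlike number ran from -0.42 to 0.18, so LSK PBS replicate 2 correlated more with LK PBS replicate 1 (0.18) than with its own number. In IL-1β the value was 0.16, a single value, since 2 libraries a group mirror each other. Blocked values are given for both, and the labels do not say that a number marks shared mice. Totals ran from 4393233 to 30871055 read pairs, and intervals cover counting error only.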

Additional observations from a re-analysis of the deposited data

How the results depend on the processing

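Members called higher with IL-1β in LSK numbered 1 (42 over all genes). They numbered 5 (417 over all genes) by DESeq2's Wald test, 0 (19) by limma-voom and 5 (355) with no filter on low counts. With the replicate block they numbered 3 (314 over all genes) and in the joint fit of 10 libraries 7 (547). In that fit without PBS replicate 2, chosen after seeing the data, they numbered 22 (1323 over all genes). Leaving out 1 library gave 0 to 4. In LK the count was 1 (869 over all genes), and 2 (1462 over all genes) with the replicate block. Leaving out 1 PBS library gave 1 to 2 (449 to 1499 over all genes). Fits without 1 IL-1β library leave a lone treated library, so their counts are not set beside these. PBS and IL-1β mice share only replicate numbers, so the replicate block is no pairing. In MSC the counts were 2 higher and 0 lower, and 1 and 2 with upper-quartile factors (817 and 831 over all genes). Leaving out 1 library gave 0 to 3 higher and 0 to 2 lower. No paired analysis was possible because the MSC groups share only 1 replicate number.

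In LSK against LK with PBS the counts were 4 higher and 16 lower, and 4 and 19 with the replicate block (2340 and 1793 over all genes). Leaving out 1 library gave 1 to 4 higher and 8 to 31 lower. With IL-1β they were 3 higher and 1 lower, and 5 higher by DESeq2's Wald test (697 over all genes). With no filter they were 6 and 2 (1070 and 1094 over all genes), and 6 were higher with the replicate block (1013 over all genes). In the joint fit they were 2 higher (Psmb8 and Psmb9) and 0 lower (295 and 314 over all genes). Leaving out 1 library gave 0 to 16 higher and 0 to 5 lower. For the difference of responses the count was 0 by edgeR, and 2 by DESeq2 and 1 with no filter, all in the direction of LSK. Over all genes, 112 passed in that direction by DESeq2 and 170 with no filter. In the direction of LK 220 and 228 of all genes did. For the members of this comparison, the range over single libraries follows. Leaving out 1 library gave 0 to 5.

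With 1 library left out, the log2 fold change of Psmb9 ran from -0.16 to 0.45 in LSK and from -0.021 to 0.40 in LK, and that of Psmb10 in MSC from -0.052 to 0.63 (negative without LSK IL-1β replicate 2, LK PBS replicate 2 and MSC PBS replicate 2). The causes of these changes were not tested. The log2 value changed sign under at least 1 alternative for 7 of 42 members in LSK, 16 in LK, 13 in MSC and 9 for the difference of responses, and for 3 of 41 in LSK against LK with PBS and 18 of 42 with IL-1β, and 0 of these were called. Without a filter the median over all genes in LSK was -0.26, against -0.06.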
